A study of Mus musculus with 12 samples.

Results

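The genes described here are 10 markers of immature and growing neurons, *Dcx*, *Cd24a*, *Igfbpl1*, *Gap43*, *Stmn1*, *Stmn2*, *Tubb2b*, *Tubb3*, *Dpysl3* and *Crmp1*, followed in the mouse retina with and without the homeobox gene *Otx2*. They were taken by symbol. All probe sets of the array annotated with 1 of these symbols and no other were kept, which gave 20 probe sets of the 34945 with a single symbol and the 45101 in all, and 10 of 18193 genes. A further probe set that names *Tubb2b* together with another gene was left out. *Dcx* has 4 probe sets, *Cd24a* and *Dpysl3* have 3 each, *Igfbpl1*, *Stmn1* and *Stmn2* have 2 each, and the others have 1 each. The main probe set of a gene is the one with the highest mean signal over the 12 arrays.

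Whole retinas were profiled on Affymetrix mouse genome arrays in 4 groups of 3 arrays, the P12 *Otx2* CKO, the P12 control, the P1 *Otx2* CKO and the P1 control retina, where P1 and P12 are postnatal days. The CKO mice were otx2 flox/flox; Crx-Cre+, and the control mice were otx2 flox/flox; Crx-Cre-, so both genotypes hold the floxed *Otx2* alleles. *Crx* is expressed in developing photoreceptors, so the deletion is driven in that lineage, and the arrays measure it in the RNA of the whole dissected retina. The arrays of a group are numbered as experiments, which the study calls independent, but the number of animals behind an array is not given in the sources used here, so the p-values measure the spread between these arrays. The groups follow the titles and the genotype field, which agree, whereas the free-text descriptions of 8 of the 12 arrays name the other genotype.

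Neurons that have left the cell cycle extend a neurite tipped by a growth cone, and in this phase they make large amounts of proteins that build and remodel microtubules. *Dcx* encodes doublecortin, which binds and stabilises microtubules in migrating neurons, *Tubb2b* and *Tubb3* encode neuronal beta-tubulins, and *Stmn1* and *Stmn2* encode stathmins, which bind tubulin and promote microtubule disassembly. *Gap43* encodes a membrane phosphoprotein of the growth cone, and *Crmp1* and *Dpysl3* encode collapsin response mediator proteins, which link guidance signals to the cytoskeleton. *Cd24a* encodes a small lipid-anchored surface glycoprotein carried by young neurons, and *Igfbpl1* a secreted protein related to the insulin-like growth factor binding proteins. Some of these genes, *Gap43*, *Stmn2* and *Tubb3* among them, are also known to be expressed by mature retinal ganglion cells.

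RefSeq promoter windows of build GRCm38.p6 were at hand for 3 of the 10 genes. The windows of *Tubb3* and *Crmp1* are shown because they overlap no annotated gene span. Each is the 250 bases before the annotated start, 5′ to 3′ on the strand of the gene. Both genes were higher in the P12 *Otx2* CKO retina. The window of *Dcx* lies partly inside the annotated span of the gene and is not shown. Capitals mark matches to ACAATG, a core letter string bound by Sox factors, on either strand. The window of *Tubb3* is chr8:123411303-123411552 (plus strand), and that of *Crmp1* is chr5:37241808-37242057 (plus strand).
Tubb3: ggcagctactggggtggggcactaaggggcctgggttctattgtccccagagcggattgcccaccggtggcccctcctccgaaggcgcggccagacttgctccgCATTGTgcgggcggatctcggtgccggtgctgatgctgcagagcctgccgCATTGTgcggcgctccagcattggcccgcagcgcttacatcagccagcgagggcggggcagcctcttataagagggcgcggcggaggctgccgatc
Crmp1: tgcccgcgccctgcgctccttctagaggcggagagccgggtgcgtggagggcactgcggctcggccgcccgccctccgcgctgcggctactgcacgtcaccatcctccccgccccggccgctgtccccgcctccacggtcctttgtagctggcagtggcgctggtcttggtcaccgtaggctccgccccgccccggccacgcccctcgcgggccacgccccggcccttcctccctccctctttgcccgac
The *Tubb3* window held 2 matches to ACAATG, both on the reverse strand, which begin 146 and 96 bases before the start. The *Crmp1* window held none. Neither window held TAATCC, the letters that OTX2 and CRX are known to bind, or CAGATG, an E-box of neuronal bHLH factors, on either strand. The 3 strings share no match in these windows. Of 27025 promoter windows of the same length, 6.4% held TAATCC, 10.9% held ACAATG (0.87% with 2 or more matches) and 14.5% held CAGATG. The G and C share was 68.0% for *Tubb3* and 75.6% for *Crmp1*, against a median of 52.0% over all windows.

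The targeted gene was checked first. The *Otx2* signal was 245, 166.8 and 107.9 in the P12 *Otx2* CKO arrays, against 1058, 1048 and 803 in the P12 control arrays, and it was 143.8, 107.8 and 154 in the P1 *Otx2* CKO arrays, against 376, 358 and 283 in the P1 control arrays. The genotypes did not overlap at either age, although the sources used here do not give the position of the probe set with respect to the floxed part. The P12 arrays were brighter than the P1 arrays, with a 2% trimmed mean signal between 96.4 and 172 at P12 and between 21.8 and 30.1 at P1, a ratio of means of 4.27, and the ratio for the hybridization spikes was 2.62. The value of 172 belongs to P12 *Otx2* CKO replicate 1, which was brighter than every other array. Genotypes were therefore compared on the signals as deposited, within an age, and ages were compared after quantile normalization of the 12 arrays. Results under other scalings are also given, though not for every call they change. The number of arrays, 3 a group, limits the precision of every value.

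At P12, 9 of the 10 genes were higher in the *Otx2* CKO than in the control retina and none was lower, with ratios of mean signals between 1.94 for *Stmn1* and 54.0 for *Igfbpl1*. The exception was *Dpysl3*, none of whose 3 probe sets passed the test. *Igfbpl1* reached the signal limit of 50, which a probe set had to pass to be tested, only through the P12 *Otx2* CKO arrays in which it is high. Over all 21390 probe sets tested, 14% were called higher in this comparison. The median log2 change of the 10 genes was 1.48, against 0.39 over all probe sets tested. After quantile normalization, which brought the median of all probe sets to 0.07, the median of the 10 genes was 1.22 and 9 were again called higher, against 8.01% of all probe sets tested. For 9 of the 10 main probe sets all 3 *Otx2* CKO arrays lay above all 3 control arrays, as they did for 20.8% of all probe sets tested.

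**Figure D1:**
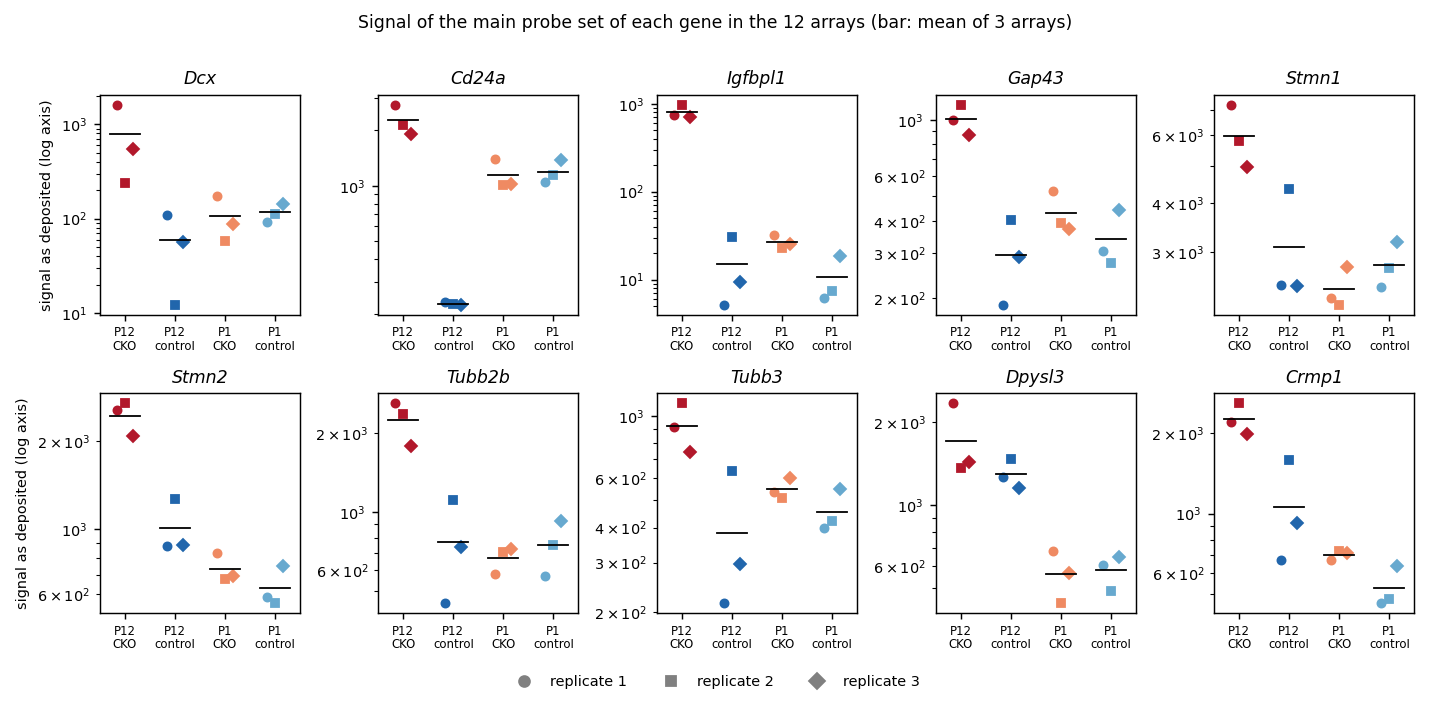
Signal of the main probe set of each of the 10 genes as deposited (arbitrary units, log axis), 1 point for each of the 12 arrays, with the shape giving the replicate number and the bar the mean of 3 arrays. In 9 genes the 3 P12 *Otx2* CKO arrays lie above the 3 P12 control arrays, and in *Dpysl3* they overlap.

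The genes of the surface and secreted proteins were far apart between genotypes. *Igfbpl1* had signals of 738, 966 and 712 in the P12 *Otx2* CKO arrays, against 5.2, 30.2 and 9.3 in the P12 control arrays. The control values lie near the bottom of the signal range, so the size of the ratio is imprecise. The limma fit gave a log2 change of 4.80 (SE 0.30, adjusted p = 6.51e-07, Benjamini-Hochberg over all probe sets tested) and 4.15 for the second probe set. *Cd24a* had signals of 2751, 2146 and 1912 in the *Otx2* CKO arrays, against 232, 226 and 225 in the control arrays. The control arrays of *Cd24a* were nearly equal (SD 3.84), and its log2 change was 3.21 (SE 0.21, adjusted p = 8.65e-07), with 3.06 and 2.95 for its other probe sets. *Igfbpl1*, *Cd24a* and *Dcx*, 3 of the 10 genes, stand in the study's own table of raised genes, which was chosen on these arrays, so their direction here is not independent evidence.

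Among the microtubule genes, *Dcx* varied most between arrays. Its signals were 1598, 242 and 552 in the P12 *Otx2* CKO arrays, against 109, 12.3 and 57 in the P12 control arrays. Replicate 1 was the highest and replicate 2 the lowest in both genotypes, and the SD of the log2 values was 1.33 in the *Otx2* CKO and 1.09 in the control arrays. The log2 change was 3.28 (SE 0.63, adjusted p = 0.00342), and the other 3 probe sets of *Dcx* gave 3.07, 1.49 and 1.48, each called higher. The probe sets with 1.49 and 1.48 reached the signal limit only through the P12 *Otx2* CKO arrays. Their means were 84.9 and 74.1 in the P12 *Otx2* CKO arrays, against 18.2 and 14.2 in the P12 control arrays. The genotypes overlapped in the probe set with 1.48, and neither was tested after quantile normalization. *Tubb2b* had 2599, 2375 and 1785 in the *Otx2* CKO arrays, against 450.4, 1113 and 736 in the control arrays, a log2 change of 1.61 (SE 0.30, adjusted p = 0.00306). *Tubb3* had 917, 1109 and 746 in the *Otx2* CKO arrays, against 216, 637 and 298 in the control arrays, a log2 change of 1.36 (SE 0.32, adjusted p = 0.0117). In both tubulin genes control replicate 2 came closest to the *Otx2* CKO arrays.

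*Stmn1* had signals of 7190, 5811 and 4969 in the P12 *Otx2* CKO arrays, against 2464, 4350 and 2452 in the P12 control arrays. Control replicate 2 was again the highest control array and stayed below the lowest *Otx2* CKO array. The log2 change was 0.99 (SE 0.26, adjusted p = 0.0196), the smallest of the 9 called, and the second probe set of *Stmn1* gave 1.70 (adjusted p = 0.0170). *Stmn2* had 2563, 2700 and 2086 in the *Otx2* CKO arrays, against 876, 1269 and 888 in the control arrays. The lowest *Otx2* CKO array of *Stmn2* was well above the highest control array, and the log2 change was 1.28 (SE 0.22, adjusted p = 0.00156), with 1.36 for the second probe set.

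Of the growth cone genes, *Gap43* and *Crmp1* were called higher and *Dpysl3* was not. *Gap43* had signals of 998, 1142 and 870.1 in the P12 *Otx2* CKO arrays, against 188, 403 and 289 in the P12 control arrays, a log2 change of 1.77 (SE 0.28, adjusted p = 0.000874). *Crmp1* had 2205, 2577 and 1984 in the *Otx2* CKO arrays, against 672, 1588 and 922 in the control arrays, a log2 change of 1.16 (SE 0.28, adjusted p = 0.0122). The genotypes did not overlap in either gene. *Dpysl3*, which encodes another protein of the *Crmp1* family, had 2340, 1364 and 1435 in the *Otx2* CKO arrays, against 1263, 1473 and 1155 in the control arrays. The genotypes overlapped, and the log2 change of *Dpysl3* was 0.36 (SE 0.25, adjusted p = 0.323), near the median of all probe sets tested. The other *Dpysl3* probe sets gave 0.30 and 0.05 (adjusted p = 0.418 and 0.875), and after quantile normalization the 3 probe sets gave 0.09, −0.0027 and −0.27.

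Some of these calls depended on the scaling or on single arrays. With trimmed mean scaling the calls of *Stmn1* (adjusted p = 0.0532) and *Crmp1* (adjusted p = 0.0575) were lost. With spike scaling that of *Crmp1* was lost (adjusted p = 0.0537). Without P12 control replicate 3 the calls of *Stmn1* (adjusted p = 0.0872), *Tubb3* (adjusted p = 0.0533) and *Crmp1* (adjusted p = 0.0508) were lost, and without P12 *Otx2* CKO replicate 1, the brightest array, that of *Stmn1* (adjusted p = 0.0676). With the 6 P12 arrays fitted alone 5 genes were called, *Dcx*, *Cd24a*, *Igfbpl1*, *Gap43* and *Tubb2b*. The share of all probe sets called in that fit is not given here.

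**Figure D2:**
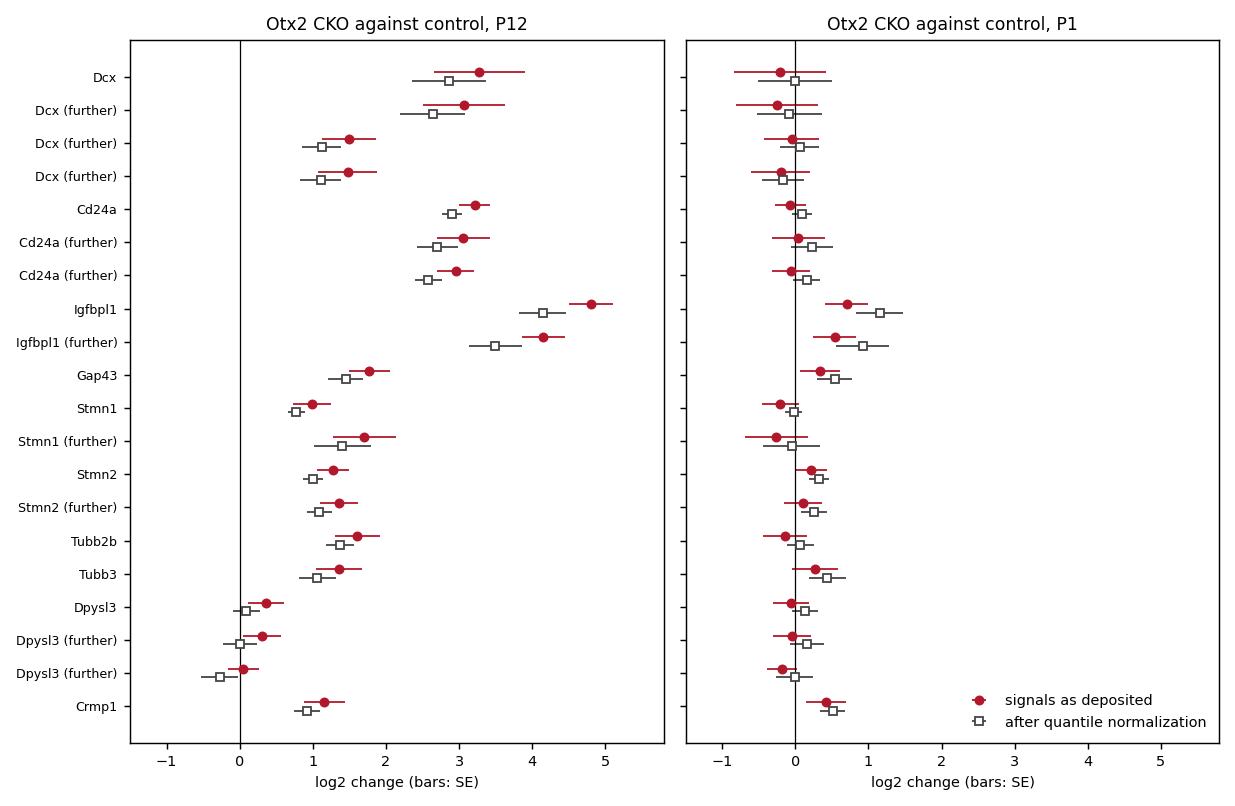
Log2 change of *Otx2* CKO against control at P12 (left) and at P1 (right) for all 20 probe sets, with filled circles for signals as deposited, open squares after quantile normalization, and bars for the SE of the limma fit on 12 arrays. At P12 the probe sets of 9 genes lie to the right of 0 and those of *Dpysl3* at or near it, and at P1 the deposited values range from −0.26 to 0.70.

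At P1 none of the 9 genes with a tested main probe set differed between genotypes (limma on the deposited signals, adjusted p between 0.905 and 0.942), and none did at an unadjusted p under 0.05. After quantile normalization none of the 10 passed either, but 4 fell under 0.05 before adjustment, all with higher values in the P1 *Otx2* CKO retina, with log2 changes of 1.15 for *Igfbpl1*, 0.54 for *Gap43*, 0.51 for *Crmp1* and 0.32 for *Stmn2*. Of all 15865 probe sets tested after quantile normalization, 182 were higher and 205 lower at that unadjusted level. Under each of the other scalings 3 genes did so. There the probe sets higher at that level were 159 of 13671 (trimmed mean), 196 of 11812 (spike) and 74 of 8248 (quantile within each age). Over all 8384 probe sets tested at P1 on the deposited signals, 15 were called, all lower, which is 0.179%. *Dcx* had signals of 172.7, 58.2 and 87.1 in the P1 *Otx2* CKO arrays, against 92, 112.6 and 144.7 in the P1 control arrays. *Cd24a* had 1391, 1009 and 1019 in the P1 *Otx2* CKO arrays, against 1042, 1150 and 1385 in the P1 control arrays. The genotypes overlapped in both genes, with log2 changes of −0.21 (SE 0.63) for *Dcx* and −0.07 (SE 0.21) for *Cd24a*. *Crmp1* had 674, 725 and 710 in the P1 *Otx2* CKO arrays, against 464.5, 478 and 636 in the P1 control arrays, a log2 change of 0.42 (SE 0.28, adjusted p = 0.905). On the deposited signals *Igfbpl1* lay under the signal limit in both P1 groups and was not tested, with 31.9, 22.8 and 25.4 in the P1 *Otx2* CKO arrays, against 6.1, 7.5 and 18.6 in the P1 control arrays. On the deposited signals the *Otx2* CKO arrays of *Crmp1* and *Igfbpl1* lay above their control arrays at P1, and the other main probe sets overlapped. After quantile normalization those of *Stmn2* and *Tubb3* lay above as well. The share of all probe sets with such a separation was counted only between the genotypes at P12, and not at P1 or between ages. The median log2 change of the 10 genes at P1 was 0.08, against −0.20 over all probe sets tested, and the signs of *Dcx*, *Cd24a*, *Stmn1*, *Tubb2b* and *Dpysl3* at P1 changed with the scaling.

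The genotype effects at P12 and P1 were then set against each other in the same fit. For 4 genes the log2 change was larger at P12 than at P1 beyond the threshold, where 3.02% of all 21530 probe sets tested were called in this direction. *Igfbpl1* is 1 of the 4, and it entered this test only through the P12 *Otx2* CKO arrays, since its mean deposited signal lay under the limit in the other groups. The difference was 4.10 for *Igfbpl1* (SE 0.42, adjusted p = 0.000171), 3.28 for *Cd24a* (SE 0.30, adjusted p = 0.000122), 3.49 for *Dcx* (SE 0.88, adjusted p = 0.0416) and 1.75 for *Tubb2b* (SE 0.43, adjusted p = 0.0357). *Gap43* (1.43, adjusted p = 0.0555), *Stmn2* (1.06, adjusted p = 0.0650), *Stmn1* (1.19, adjusted p = 0.0800), *Tubb3* (1.09, adjusted p = 0.169), *Crmp1* (0.74, adjusted p = 0.256) and *Dpysl3* (0.42, adjusted p = 0.446) did not pass. The calls of *Igfbpl1* and *Cd24a* held under all 24 alternatives, whereas that of *Dcx* was lost under 10 and that of *Tubb2b* under 12. After quantile normalization 5 genes were called, these 4 and *Stmn1* (0.79, adjusted p = 0.0125), against 1.27% of all probe sets tested. With the pairs of replicate number within each age as a block, 8 genes were called, all except *Crmp1* and *Dpysl3*. The count was 9 without P12 control replicate 2, and it was 2 without any 1 of P1 control replicates 1, 2 and 3, P1 *Otx2* CKO replicates 2 and 3, P12 control replicate 3 and P12 *Otx2* CKO replicate 1. No share of all probe sets is given for the block or the left-out arrays, so these counts do not set the 10 genes apart.

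After quantile normalization all 9 genes with a tested main probe set were lower in the P12 control than in the P1 control retina, where 19.8% of the 17636 probe sets tested were called lower. The median log2 change of the 10 genes was −1.29, against −0.06 over all probe sets tested. *Cd24a* fell to quantile-normalized signals of 175, 150.3 and 167 in the P12 control arrays, against 2084, 2179 and 2355 in the P1 control arrays, a log2 change of −3.63 (SE 0.14, adjusted p = 1.20e-09). *Dcx* fell to 74.8, 9.77 and 41.2 in the P12 control arrays, against 228, 278 and 341 in the P1 control arrays, a log2 change of −2.53 (SE 0.51, adjusted p = 0.00135). The ages did not overlap in either gene. *Tubb3* (−2.06), *Gap43* (−1.89), *Tubb2b* (−1.61), *Stmn1* (−0.98), *Stmn2* (−0.97) and *Crmp1* (−0.77) also fell, with 0.00318 as the highest adjusted p. *Dpysl3* passed narrowly at −0.49 (SE 0.18, adjusted p = 0.0416), its arrays overlapped between ages, and its other probe sets gave −1.41 (adjusted p = 0.000291) and 0.24 (adjusted p = 0.482). Without any 1 of P1 control replicates 1 and 3 and P12 control replicates 2 and 3 the call of *Dpysl3* was lost. *Igfbpl1* lay under the signal limit in both control groups and was not tested.

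The calls held for 6 of the 9 genes with the arrays scaled to the hybridization spikes (*Cd24a*, *Dcx*, *Tubb3*, *Gap43*, *Tubb2b* and *Stmn1*), where 6.26% of all probe sets tested were called lower. As deposited, where 82.7% of all probe sets were called higher, *Cd24a* alone was lower (−2.30), and *Stmn2* (0.65), *Crmp1* (0.91) and *Dpysl3* (1.14) were higher, against a median of 1.45 over all probe sets tested.

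The level in the P12 *Otx2* CKO retina was then set beside this difference. It shares the P1 control arrays with the comparison of ages in the control retina and the P12 *Otx2* CKO arrays with the genotype comparison, so these values are not independent of each other. After quantile normalization 7 of the 10 genes were not called different between the P12 *Otx2* CKO and the P1 control retina, *Igfbpl1* was higher, and *Cd24a* and *Tubb3* were lower. *Igfbpl1* entered this comparison only through the P12 *Otx2* CKO arrays. Over the 17253 probe sets tested, 15.7% were called higher and 13.7% lower. Levels were also taken as ratios to the mean of the P1 control retina, after quantile normalization. *Stmn2* stood at 1.03 in the P12 *Otx2* CKO retina, against 0.504 in the P12 control retina, and *Crmp1* stood at 1.12 in the P12 *Otx2* CKO retina, against 0.588 in the P12 control retina. With spike scaling both were called higher in the P12 *Otx2* CKO than in the P1 control retina (*Stmn2* 0.57, adjusted p = 0.0326, and *Crmp1* 0.71, adjusted p = 0.0383), so whether they stood at or above the P1 control level depends on the scaling. For *Stmn1* the ratio was 0.866 in the P12 *Otx2* CKO and 0.510 in the P12 control retina, for *Tubb2b* 0.839 in the P12 *Otx2* CKO and 0.326 in the P12 control retina, and for *Gap43* 0.732 in the P12 *Otx2* CKO and 0.257 in the P12 control retina. All 3 P12 *Otx2* CKO arrays of *Stmn1* lay below all 3 P1 control arrays. The second probe set of *Stmn1* was called lower (−1.11, adjusted p = 0.0472), and with trimmed mean scaling so was the main one (−1.01, adjusted p = 0.00334). In *Dcx* the ratio was 1.502 in the P12 *Otx2* CKO and 0.149 in the P12 control retina, with P12 *Otx2* CKO arrays at 749, 161 and 363, on both sides of the P1 control arrays. A p that misses the threshold does not show equal levels, and the log2 differences of these 6 genes from the P1 control retina were between −0.44 and 0.33 with SEs between 0.12 and 0.51.

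*Cd24a* had quantile-normalized signals of 1375, 1265 and 1334 in the P12 *Otx2* CKO arrays, below all 3 P1 control arrays by a log2 change of −0.73 (SE 0.14, adjusted p = 0.00120), although its other probe sets did not pass (−0.53 and −0.34). *Tubb3* had 402, 669 and 498.5 in the P12 *Otx2* CKO arrays, against 965, 981 and 1180 in the P1 control arrays, a log2 change of −0.995 (SE 0.25, adjusted p = 0.00925). On this scale the P12 *Otx2* CKO retina lay between the P12 control and the P1 control retina in both genes. With spike scaling neither was called (*Cd24a* −0.45, adjusted p = 0.0605, and *Tubb3* −0.36, adjusted p = 0.307), and as deposited both were called higher than in the P1 control retina (*Cd24a* 0.91 and *Tubb3* 0.99). *Igfbpl1* was above both, at 316, 584 and 475 in the P12 *Otx2* CKO arrays, against 16.5, 20.8 and 44.7 in the P1 control arrays, a log2 change of 3.46 (SE 0.32, adjusted p = 3.03e-06). The P1 control mean of *Igfbpl1* was 27.4, under the signal limit, so only the P12 *Otx2* CKO arrays brought it into this test. *Dpysl3* had a ratio of 0.757 in the P12 *Otx2* CKO and 0.713 in the P12 control retina, and the log2 change of P12 *Otx2* CKO against P1 control was −0.40 (adjusted p = 0.109, and 0.0160 with the replicate number as a block). Of its other probe sets, 1 was called lower (−1.41, adjusted p = 0.000436) and 1 was not (−0.034, adjusted p = 0.935).

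Within the *Otx2* CKO genotype, 4 genes were called lower and 1 higher at P12 than at P1. After quantile normalization *Tubb3* (−1.43, SE 0.25), *Gap43* (−0.98, SE 0.24), *Cd24a* (−0.82, SE 0.14) and *Dpysl3* (−0.53, SE 0.18) were lower in the P12 than in the P1 *Otx2* CKO retina, with adjusted p between 0.000524 and 0.0409, and *Igfbpl1* was higher (2.31, SE 0.32, adjusted p = 0.000126). Of the 17252 probe sets tested, 13.2% were called lower and 14.3% higher. *Dcx* (0.34), *Crmp1* (−0.36), *Tubb2b* (−0.31), *Stmn2* (−0.28) and *Stmn1* (−0.18) did not pass. The call of *Dpysl3* was lost without any 1 of P1 *Otx2* CKO replicates 1 and 3 and P12 *Otx2* CKO replicates 2 and 3.

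The comparison of the P12 *Otx2* CKO with the P1 control retina likewise depends on how the arrays are scaled. On the signals as deposited all 10 genes were higher in the P12 *Otx2* CKO than in the P1 control retina, with log2 changes between 0.91 and 4.96, but so were 92.5% of the 20689 probe sets tested. With the arrays scaled to the hybridization spikes, 3 genes (*Igfbpl1*, *Stmn2* and *Crmp1*) were higher in the P12 *Otx2* CKO than in the P1 control retina. Over all probe sets tested, 46.4% were called higher in the P12 *Otx2* CKO than in the P1 control retina on that scale. As deposited and with spike scaling alike, *Igfbpl1* was tested only through the P12 *Otx2* CKO arrays. Between the P12 *Otx2* CKO and the P12 control retina the direction was the same for all 10 genes under each of these scalings.

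**Figure D3:**
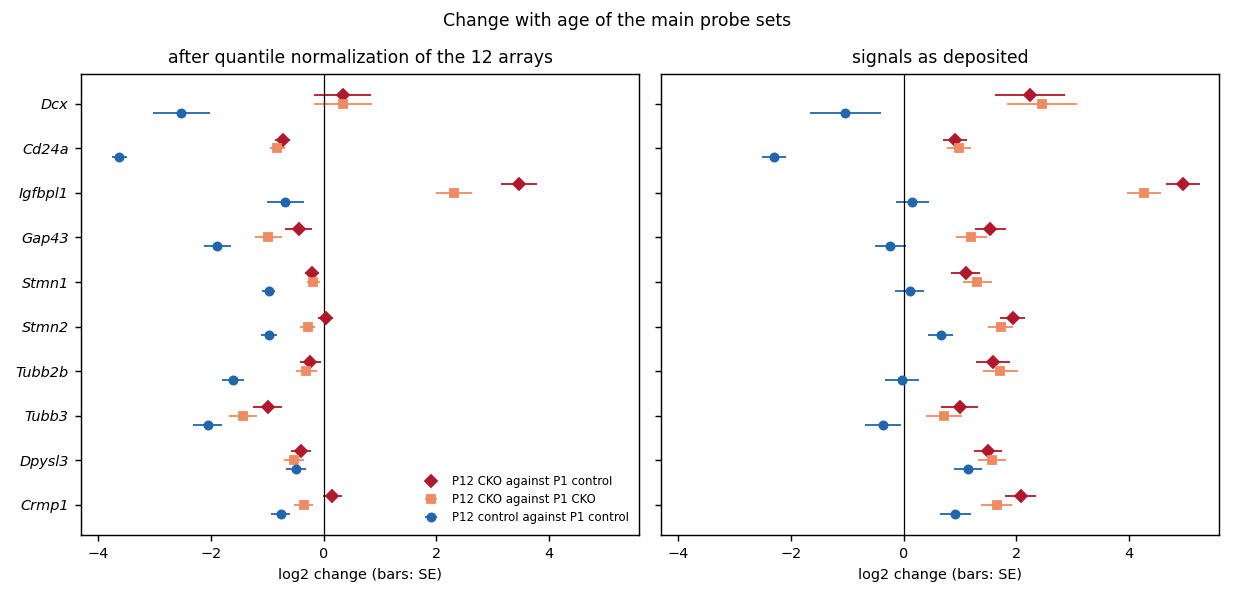
Log2 change of the main probe sets between ages, after quantile normalization of the 12 arrays (left) and as deposited (right), with diamonds for P12 *Otx2* CKO against P1 control, squares for P12 *Otx2* CKO against P1 *Otx2* CKO, circles for P12 control against P1 control, and bars for the SE. After quantile normalization the circles lie between −3.63 and −0.49 (*Igfbpl1*, at −0.68, was not tested) and the diamonds of 7 genes were not called different from 0, while as deposited all diamonds lie between 0.91 and 4.96.

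Other genes of neuronal growth were grouped by function, and their counts stand beside the 14% of all probe sets called higher and 4.48% called lower at P12 (8.01% and 8.51% after quantile normalization). Of 24 other cytoskeleton and microtubule genes of growing neurons, 14 were higher and none lower in the P12 *Otx2* CKO than in the P12 control retina, with a median log2 change of 0.97, and quantile normalization gave 15 higher. Among them were *Stmn4*, another stathmin (1058 ± 71.9 in the *Otx2* CKO and 248 ± 97.1 in the control retina, SD, n = 3 each, log2 change 2.09), *Marcksl1*, an actin regulator (1.68), *Dbn1*, which encodes drebrin (1.61), and *Dpysl5*, a relative of *Crmp1* (1.60). Of 15 tested adhesion and guidance genes of growing axons 6 were higher and none lower (median 1.05). Among the 6 were *Cntn2* (2.46), *Nrp1* (1.88), *St8sia2* (1.53) and *Robo1* (1.41). Quantile normalization gave 5 higher and 2 lower of 14. *Cntn2* stands in the study's own table of raised genes, chosen on these arrays, so its direction here is not independent evidence. In that table its signal passes the signal limit in the P12 *Otx2* CKO retina but not in the P12 control retina. Of 23 tested early neuronal regulators 17 were higher and 1 was lower (median 1.39), and quantile normalization gave 14 higher and 1 lower of 22. As deposited, only 21 early regulators and 13 adhesion and guidance genes reached the signal limit in a control group of either age. The others tested in these 2 lists entered only through the P12 *Otx2* CKO arrays, which bears on their counts and medians. *Sox11*, a transcription factor of newly formed neurons, had signals of 1691 ± 690.5 in the P12 *Otx2* CKO and 42.9 ± 8.12 in the P12 control retina (log2 change 4.78) for the brightest of the 6 probe sets that the annotation used here names *Sox11*. The other *Sox11* probe sets gave log2 changes between 2.68 and 3.69, the next brightest with 846 ± 454 in the P12 *Otx2* CKO and 60.7 ± 24.1 in the P12 control retina. The probe sets with P12 control means of 42.9, 29.6, 27.9 and 20.7 reached the signal limit only through the P12 *Otx2* CKO arrays. *Sox11* also stands in the study's own table of raised genes, where the name belongs to the next brightest probe set. That table names the brightest probe set *BC048721*. *Nhlh2* (2.60) and *Elavl2* (2.35) were also higher, while *Neurod1*, which photoreceptors express, was lower (−2.50).

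Of 17 tested genes of mature neurons and synapses, 2 were higher (*Rbfox3*, 1.54, and *Stx1a*, 0.95) and 1 was lower (*Syp*, −0.82) in the P12 *Otx2* CKO than in the P12 control retina, and their median log2 change of 0.29 was under that of all probe sets tested. These shares are near those of all probe sets, and quantile normalization gave 2 higher and 2 lower. Between P12 control and P1 control, after quantile normalization, 13 of the 17 were higher and none lower, while the cytoskeleton list had 9 lower of 24 and the early regulators 7 lower of 21, with none higher in either, against 19.5% higher and 19.8% lower of all probe sets tested. The adhesion and guidance genes were split at 3 higher and 4 lower of 14. With spike scaling, where 47% of all probe sets were called higher, the counts were 16 higher of 16 for the mature genes, 6 higher and 4 lower of 24 for the cytoskeleton list and 5 higher and 4 lower of 21 for the early regulators. As deposited they were 17 higher of 17, 18 higher of 24, and 11 higher and 2 lower of 21. Whether the lists differ from each other was not tested.

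Cell type markers moved between the genotypes at P12 as well, and in bulk tissue fewer cells of a type and less RNA per cell cannot be told apart. All 4 rod markers, all 4 cone markers and both tested bipolar cell markers were lower in the P12 *Otx2* CKO retina. The summed signal of the rod markers was 689 to 1606 in the P12 *Otx2* CKO arrays, against 21448 to 28539 in the P12 control arrays, that of the cone markers 156 to 247 in the P12 *Otx2* CKO arrays, against 3067 to 6350 in the P12 control arrays, and that of 3 bipolar cell markers 83.4 to 164 in the P12 *Otx2* CKO arrays, against 2545 to 4899 in the P12 control arrays. Of the inner retinal neurons, amacrine cell markers were higher for 3 of 6 (*Pax6*, *Slc6a9* and *Tfap2a*), with sums of 9890 to 13620 in the P12 *Otx2* CKO arrays, against 5702 to 8486 in the P12 control arrays. Ganglion cell markers were higher for 1 of 6 (*Rbpms*, 0.99), a share near the 14% of all probe sets, and for none of 6 after quantile normalization, with overlapping sums of 4346 to 6329 in the P12 *Otx2* CKO arrays, against 2889 to 4864 in the P12 control arrays. Horizontal cell markers were higher for 1 and lower for 2 of 3 tested, with sums of 212 to 493 in the P12 *Otx2* CKO arrays, against 431 to 557 in the P12 control arrays. The horizontal cell marker that was higher reached the signal limit only through the P12 *Otx2* CKO arrays.

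Of the non-neuronal cells, Muller glia markers were higher for 3 of 6, with sums of 14208 to 18634 in the P12 *Otx2* CKO arrays, against 6270 to 12326 in the P12 control arrays. Microglia markers were higher for all 5 tested, with sums of 2140 to 2874 in the P12 *Otx2* CKO arrays, against 446 to 849 in the P12 control arrays. Only 3 microglia markers reached the signal limit in a control group of either age as deposited. The other tested ones entered this comparison only through the P12 *Otx2* CKO arrays. Of the progenitor and cell cycle markers 3 were tested and all were higher (*Hes5*, *Sox2* and *Ccnd1*), with sums of 1246 to 1476 in the P12 *Otx2* CKO arrays, against 395 to 600 in the P12 control arrays, and 2656 to 3225 in the P1 *Otx2* CKO arrays, against 3629 to 3829 in the P1 control arrays. In the study's own table of transcription factors the P12 control signal of *Hes5* lies under the signal limit. After quantile normalization the counts were 2 higher of 6 for amacrine cell, 2 of 6 for Muller glia and 2 of 3 for progenitor markers, 1 higher and 1 lower of 2 for horizontal cell markers, and unchanged for rod, cone, bipolar cell and microglia markers. No marker named on the array was at 0 in any P12 array. The part of these cell types in the values of the 10 genes was not tested.

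The 10 genes did not follow a single course over the 12 arrays. As a description, with age and genotype shared by all points, the quantile-normalized log2 signal of a gene correlated with the mean of the other 9 at r = 0.98 for *Stmn2* and *Cd24a*, 0.95 for *Gap43*, 0.94 for *Stmn1* and *Tubb2b*, 0.91 for *Crmp1*, 0.87 for *Tubb3*, 0.78 for *Dcx*, 0.58 for *Dpysl3* and 0.43 for *Igfbpl1*. Among 9966 other genes, the 8 most like the mean of the 10 were *Tmeff1* (r = 0.98), *Txnrd1* (0.98), *Rassf4* (0.98), *Mycn* (0.98), *Cracd* (0.98), *Ypel1* (0.97), *Dbn1* (0.97) and *Cyp1b1* (0.97). *Mycn*, the first transcription factor among them, had mean quantile-normalized signals of 450.2 in the P12 *Otx2* CKO, 172 in the P12 control, 582 in the P1 *Otx2* CKO and 548 in the P1 control retina. That is the course of *Cd24a*, *Tubb2b* and *Stmn1*, with the P12 control retina lowest and the P1 groups highest.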

How the data were processed

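The study measured RNA of whole mouse retina, converted to biotin-labelled cRNA and hybridized to 12 Affymetrix arrays. The authors determined the intensity of each probe set with GeneChip Operating Software 1.4, and the deposited signal intensities are linear and were used as given. How the arrays were scaled is not given in the sources used here, and 826 of 541212 values were 0. The 64 control probe sets were left out of all tests. Detection calls were not used here.

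In R 4.3.3, limma 3.58.1 (lmFit, eBayes with trend) was fitted to log2(signal + 16) of the 12 arrays in 1 model of 4 groups, so a log2 change understates that of dim probe sets. Tests were limited to probe sets that reached a mean signal of 50 in 1 of the groups compared, with Benjamini-Hochberg adjustment over all probe sets tested and a threshold of 0.05. Genotypes were compared on deposited signals and ages after quantile normalization. Probe sets were named from the platform annotation, with 932 naming several genes and 9211 unnamed here. The fit was tested on simulated data. Figures were drawn in Python 3.11.15 with matplotlib 3.10.9.

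The 10 genes, the 13 lists of 135 further genes, the named genes and the promoter strings were chosen with earlier results of these data known. Named were all 10 genes, of each list up to 4 genes with the largest called change at P12, and the 8 genes most like the mean of the 10.

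Replicates with the same number in the titles deviated together within an age, with correlations of 0.82, 0.88 and 0.54 at P12 and 0.18, 0.14 and 0.25 at P1, so the numbers were taken to pair the arrays, and fits with the number as a block were run. Alternatives covered scaling, offset, signal limit, block, variance trend, probe set, the arrays fitted and leaving out each array. Spike scaling of the genotype comparisons and the block within each age were chosen after seeing the data. Correlations between arrays of 1 group were 0.884 to 0.986.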

Additional observations from a re-analysis of the deposited data

Results flagged for a closer look

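In 4 of the 10 genes the effect of *Otx2* loss differed between P12 and P1 by the test of the difference itself (limma, adjusted over all probe sets tested), where 3.02% of all probe sets were called in this direction. *Igfbpl1* entered this test only through the P12 *Otx2* CKO arrays, and the calls of *Dcx* and *Tubb2b* were lost under 10 and 12 of 24 alternatives. The log2 change of *Otx2* CKO against control was larger at P12 than at P1 by 4.10 for *Igfbpl1* (adjusted p = 0.000171), 3.28 for *Cd24a* (adjusted p = 0.000122), 3.49 for *Dcx* (adjusted p = 0.0416) and 1.75 for *Tubb2b* (adjusted p = 0.0357). All 3 *Otx2* CKO arrays lay above all 3 control arrays at P12 in these genes, as they did for 20.8% of all probe sets tested. At P1 the arrays overlapped in *Cd24a*, *Dcx* and *Tubb2b* but not in *Igfbpl1*.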

How the results depend on the processing

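In the comparison of *Otx2* CKO with control at P12, none of the 10 genes changed direction under any of 19 alternatives, and the count of called genes was between 6 and 9 with an array left out, 7 to 9 under the other scalings, and 5 with the P12 arrays alone. The split of all calls moved from 2990 higher and 959 lower as deposited to 1361 higher and 1447 lower after quantile normalization. At P1 the count stayed at 0 throughout. Shares of all probe sets are not given for the block fits, the P12 arrays alone, the fits without a filter or those with an array left out. For the difference between P12 and P1 the count was 2 with spike scaling and with no filter on low signals, 8 with the replicate block within each age (5 with the number alone as a block), and 2 to 9 with an array left out. For P12 control against P1 control it was 4 as deposited (3 higher, 1 lower), where 82.7% of all probe sets tested were called higher. For P12 *Otx2* CKO against P1 *Otx2* CKO it was 10, all higher, as deposited, where 96.2% of all probe sets tested were called higher. With spike scaling it was 3 (1 higher, 2 lower), where 6326 of 15992 probe sets tested were called higher and 670 lower. For P12 *Otx2* CKO against P1 control it was 10, all higher, as deposited, 3, all higher, with spike scaling and 5 (1 higher, 4 lower) with trimmed mean scaling. Of all probe sets tested in it, 92.5% were called higher as deposited and 46.4% with spike scaling. With trimmed mean scaling 2395 of 15137 were called higher and 15.2% lower. Apart from the calls it added there and that of *Dpysl3* in P12 *Otx2* CKO against P1 control (adjusted p = 0.0160), the replicate block changed no call. In the age comparisons these settings differ in the brightness they leave to the P12 arrays. Arrays carry no read depth, and *Igfbpl1* in the P12 control, P1 *Otx2* CKO and P1 control arrays lay under the signal limit.

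Log2 changes of single genes that turned sign were the following. At P1, *Cd24a* was 0.094 with quantile normalization, 0.16 with trimmed mean scaling, 0.14 with quantile normalization within each age, 0.25 with spike scaling, 0.039 with its second probe set and −0.22 to 0.041 with an array left out. *Dcx* at P1 was 0.0014 with quantile normalization within each age, 0.065 with spike scaling and −0.58 to 0.094 with an array left out. *Stmn1* at P1 was 0.026 with trimmed mean and 0.12 with spike scaling. *Tubb2b* at P1 was 0.069, 0.089, 0.085 and 0.18 with quantile normalization, trimmed mean scaling, quantile normalization within each age and spike scaling, and −0.31 to 0.023 with an array left out. *Dpysl3* at P1 was 0.13, 0.17, 0.16 and 0.26 in the same order, and −0.20 to 0.10 with an array left out, and its difference between P12 and P1 was −0.036, −0.12, −0.063 and −0.22.

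As deposited, P12 control against P1 control gave 0.15 for *Igfbpl1*, 0.11 for *Stmn1*, 0.65 for *Stmn2*, 1.14 for *Dpysl3* and 0.91 for *Crmp1*, and with spike scaling *Dpysl3* was 0.11. P12 *Otx2* CKO against P1 *Otx2* CKO gave, as deposited, 0.98 for *Cd24a*, 1.20 for *Gap43*, 1.30 for *Stmn1*, 1.72 for *Stmn2* and for *Tubb2b*, 0.72 for *Tubb3*, 1.56 for *Dpysl3* and 1.65 for *Crmp1*. With spike scaling it gave 0.032 for *Stmn2* and 0.033 for *Tubb2b*, and *Dcx* was −0.18 to 0.88 with an array left out. P12 *Otx2* CKO against P1 control gave, as deposited, 0.91 for *Cd24a*, 1.54 for *Gap43*, 1.10 for *Stmn1*, 1.58 for *Tubb2b*, 0.99 for *Tubb3* and 1.4996 for *Dpysl3*. With spike scaling it gave 0.19 for *Gap43*, 0.22 for *Tubb2b* and 0.14 for *Dpysl3*, with trimmed mean scaling −0.16 for *Stmn2* and −0.011 for *Crmp1*, and with the second probe set −0.039 for *Stmn2*. With an array left out *Dcx* was −0.19 to 0.87 and *Stmn2* was −0.044 to 0.12.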
